A study of Hippophae rhamnoides with 3 samples.

Results

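Genes of the ubiquitin system were selected from the deposited tables of differentially expressed genes of seabuckthorn leaves by the words of their best hit in other species: ubiquitin, F-box, RING finger (4 spellings), U-box, proteasome, cullin, SKP1 or SUMO. Descriptions with ethylene or auxin were to be dropped, which removed 0 genes. The selection held 53 of the 7713 genes of the 3 tables, of which 5264 had a named best hit. By the words of the hit, 15 members were F-box proteins, 13 RING ligases, 11 other ubiquitin ligases and 5 ubiquitin conjugating enzymes (E2). The remaining members were 2 SCF core genes (a SKP1 and a cullin), 2 proteasome subunits, 2 ubiquitin-like or ubiquitin-binding proteins, 1 ubiquitin activating enzyme (E1), 1 SUMO ligase and 1 ubiquitin carboxyl-terminal hydrolase.

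The leaves came from seabuckthorn (*Hippophae rhamnoides* L.) plantlets of 30 days, kept for 6 hr at -10 °C (freeze stress, FS), at 4 °C (cold stress, CS) or at 28 °C (control, CON), all raised from seed and grown at 28 °C. There was 1 DeepSAGE library per condition, so no difference given here has a replicate check, no test of conditions was possible, and fewer cells of a type cannot be told apart from less RNA per cell. The labels do not say how many plantlets went into a library. The tables were limited to genes that the authors had called, so every member was called in at least 1 comparison: 22 members were listed for 1 comparison, 30 for 2 and 1 for all 3. A count is therefore known in all 3 libraries for 31 members and in 2 libraries for the other 22.

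In plants as in animals, proteins are marked for destruction by chains of ubiquitin, a small protein that is activated by an E1, handed to an E2 and attached to the target with the help of a ligase (E3). RING ligases bring the E2 and the target together on 1 chain, whereas in SCF ligases a cullin and SKP1 form the core and an exchangeable F-box protein picks the target. Marked proteins are degraded by the 26S proteasome, ubiquitin carboxyl-terminal hydrolases remove the mark, and SUMO is a related small protein attached by its own ligases. In Arabidopsis the cold response is known to be held in check by a RING ligase, HOS1, and tuned by a SUMO ligase, SIZ1. No member description carries these names.

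DeepSAGE counts 1 short tag per transcript, made of the CATG cut by the enzyme NlaIII and the 17 bases that follow. The tags below are listed tags of the members described most closely, and tags 1 base away from them. The listed tags of a member held all or part of its count, for the SUMO ligase 112 of 312 tags in FS. The capitals mark the CATG site. Site 1 is the CATG nearest to the 3′ end of the reference gene. The position of these genes in a genome is not known here.
Unigene100364_All, ubiquitin family protein, site 1: CATGaatctcgtagtccttga
listed as matching no gene, C17T from the tag above: CATGaatctcgtagtctttga
Unigene44381_All, F-box/LRR-repeat protein, site 1: CATGtcaaatgtaatgctctt
Unigene44381_All, F-box/LRR-repeat protein, site 2: CATGtgtttgcgataaaactt
Unigene22577_All, SUMO ligase, site 1: CATGaatttatcaatctctct
Unigene22577_All, SUMO ligase, site 3: CATGtaaatgatcacttagat
Unigene22897_All, SKP1 component-like 1, site 1: CATGttgtccaagagtctgtg
Unigene22897_All, SKP1 component-like 1, site 2: CATGaggtgcttgagcaggaa
Unigene24420_All, RING finger protein, site 1: CATGtgtggataagtggctta
Unigene43283_All, RING1 ligase, site 1: CATGtgcgcttgggaagagat
Unigene58103_All, F-box/LRR-repeat protein, site 1: CATGggtttttggaaagtgag
Unigene5117_All, ubiquitin-protein ligase, site 1: CATGtaacgatgatgttgttg
Unigene53254_All, ubiquitin-protein ligase, site 1: CATGcaaggacttggaagaat
Unigene80922_All, predicted protein, T21C from the tag above: CATGcaaggacttggaagaac
The first pair and the last pair are shown because they differ at 1 base, named by the base of the first tag, its position counted from 1 at the 5′ end, and the base of the second. The SUMO ligase, the F-box/LRR-repeat gene and SKP1 are shown because each had 2 listed sense tags, and the others as the single tag of a gene that stood apart in 1 library.

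The clean tags implied by the deposited counts numbered 11908575 in FS, 12010078 in CS and 11566402 in CON. Levels are given as tags and as TPM, the tags scaled to the size of the library. Up regulated and down regulated refer to the genes that the authors listed, by the sign of their log2 ratio. Differences are log2 ratios of TPM with an exact (Clopper-Pearson) 95% interval, which covers counting error only, since PCR copies cannot be told from separate molecules without molecular identifiers. A count of 0 allows up to 3 tags, which is 0.252 TPM in FS, 0.250 TPM in CS and 0.259 TPM in CON. A leaf origin was checked with 6 listed photosynthesis genes, of which the 4 with counts in all libraries summed to 9228 tags in FS, 9692 in CS and 21130 in CON. None of them was at 0, but they did not share 1 order. In FS, CS and CON the ribulose bisphosphate carboxylase small chain had 6206, 1353 and 7492 tags, and plastocyanin 2639, 7179 and 12892. The chlorophyll a/b binding genes Unigene96011_All and Unigene116240_All had 56, 435 and 49 tags, and 327, 725 and 697. Of the root nodule and pollen names, leghemoglobin was not among the listed genes, 3 nodulin-type genes summed to 216 tags in FS, 475 in CS and 73 in CON, and 4 genes named for pollen allergens to 2101, 3443 and 510 tags in the same libraries. Orders differed within these sums too. Nodulin-26 was highest in FS, with 69 tags against 20 in CS and 24 in CON, and the other nodulin-type genes were highest in CS. Among the pollen names Unigene76069_All alone was highest in FS, with 1579 tags against 1204 in CS and 405 in CON. The part of such shifts in the ratios below was not tested.

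In cold stressed against control leaves, 18 members were up regulated and 6 were down regulated. These were 34.0% and 11.3% of the 53 members, beside 26.6% and 23.6% of all 7713 genes, and members called in either direction made up 45.3%, beside 50.2% of all genes. Up regulated genes were 75.0% of the listed members and 53.0% of all genes listed for this comparison, and the median log2 ratio was 1.43 over the members and 1.08 over all listed genes. All 7 listed genes of the RING class were higher in CS. The class goes by hit words and need not hold every RING ligase. Unigene14080_All, named for the RING ligase SINAT5 but classed with the other ligases, was lower in CS (-1.52). In freeze stressed against control leaves, 19 members (35.8%) were up regulated and 11 (20.8%) down regulated, beside 29.5% and 23.0% of all genes, and 56.6% of members were called, beside 52.5%. The median log2 ratio was 1.37 over the members and 1.18 over all listed genes, with the 4 members at 0 tags in CON set to the limit of 3 tags. In freeze against cold stressed leaves, 16 members (30.2%) were up regulated and 15 (28.3%) down regulated, beside 28.7% and 23.2%, and 58.5% were called, beside 51.8%. Here the members split about evenly, and their median of 1.00, beside 1.12 over all listed genes, sits at the edge of the gap that the authors' limit leaves around no change. With DESeq2 size factors over the listed genes, 5 members stayed past the log2 limit of 1 as up regulated and 6 as down regulated in CS vs CON. These counts were 8 and 11 in FS vs CON, and 5 and 15 in FS vs CS. The factors rest on listed genes alone, none of them near no change, and only listed members were recounted. Such a recount can lose up regulated members but gain no down regulated ones, so it cannot decide the split of directions. The shares of members and of all genes were set side by side and not tested against each other.

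**Figure D1:**
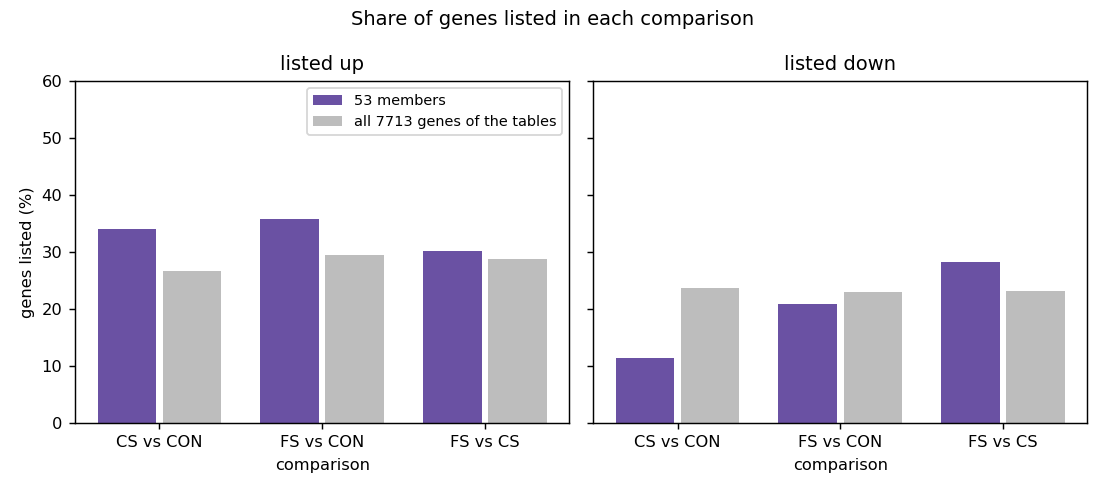
Share of genes (%, bars from 0) listed as up regulated (left panel) and down regulated (right panel) in each comparison, for the 53 members (purple) and for all 7713 genes of the tables (grey). The 2 bars of a pair lie farthest apart for genes down regulated in CS vs CON, at 11.3% of the members and 23.6% of all genes.

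The best hit of Unigene100364_All was a ubiquitin family protein of Arabidopsis lyrata. The gene had 746 tags (62.6 TPM) in FS, 147 tags (12.2 TPM) in CS and 47 tags (4.06 TPM) in CON, and it was the 1 member listed in all 3 comparisons. Each of the 3 libraries stood apart from the others beyond counting error. The log2 ratio was 1.59 (1.11 to 2.10) for CS vs CON, 3.95 (3.52 to 4.40) for FS vs CON and 2.36 (2.10 to 2.62) for FS vs CS. Of all genes, 0.713% were listed as up regulated in all 3 comparisons.

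For Unigene100364_All the tag tables hold 2 tags that differ at 1 base and have unlike ratios. Its perfectly matching tag had 87 copies in FS, 32 in CS and 19 in CON. The tag with the C17T difference, which the tag tables list as matching no gene, had 596, 112 and 24 copies in the same libraries. The authors mapped tags with up to 1 mismatch. That the second tag was counted for this gene is inferred from the sums, since both tags together made up 91.6% of the gene's count in FS, 98.0% in CS and 91.5% in CON. On the perfectly matching tag alone the log2 ratio was 2.15 (1.42 to 2.95) for FS vs CON and 1.46 (0.86 to 2.09) for FS vs CS, but 0.70 (-0.17 to 1.60) for CS vs CON, below the authors' limit of 1. The tag with the difference gave 4.59 (4.00 to 5.25), 2.42 (2.13 to 2.73) and 2.17 (1.52 to 2.87) for the same comparisons. If it was so counted, the place of this gene in the CS vs CON list rests on it, and whether both tags come from the same gene was not tested.

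The other member of this class, Unigene91967_All, with a UBA/UBX domain protein as best hit, was lower in FS only, with 33 tags against 75 in CS and 71 in CON. The E1 gene Unigene56064_All, named for E1c, had 553 tags (46.4 TPM) in FS and 247 tags (20.6 TPM) in CS, a log2 ratio of 1.18 (0.96 to 1.40). An E1 opens the pathway by activating ubiquitin or a ubiquitin-like protein, and in humans the name E1C belongs to the enzyme for NEDD8. Its CON count is not known here because it was not listed against CON.

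**Figure D2:**
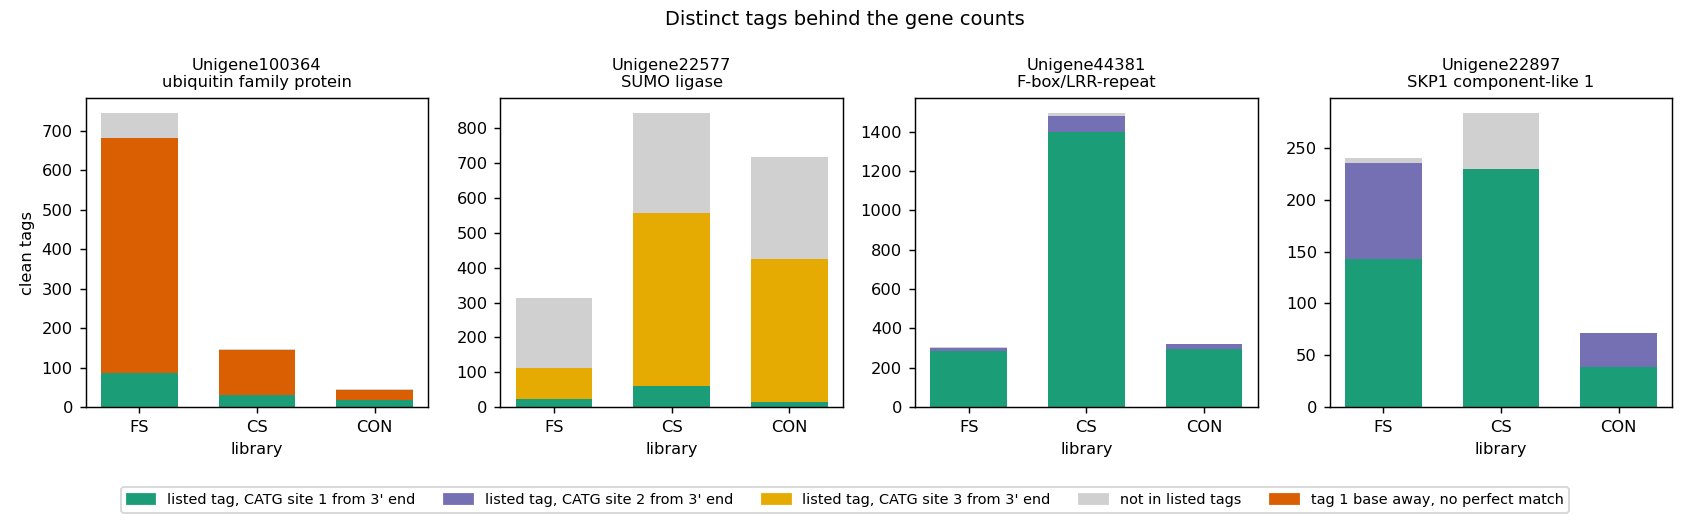
Clean tags (linear axis from 0) in FS, CS and CON behind the gene counts of 4 members, stacked by tag: listed tags at CATG site 1 (green), site 2 (violet) and site 3 (yellow) from the 3′ end, the tag 1 base away that is listed as matching no gene and was placed here by inference (orange), and tags of the gene not in the tag lists with a count for that library (grey). In Unigene100364_All the orange part is 596 of 746 tags in FS, and in Unigene22577_All the site 3 tag falls to 88 in FS, against 495 in CS and 410 in CON.

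All 5 E2 genes, which carry activated ubiquitin to the ligases, were listed for FS vs CON, and they differed in direction. The E2 gene with the most tags in both comparisons with CON, Unigene19947_All, had 172 tags (14.4 TPM) in FS, 219 (18.2 TPM) in CS and 428 (37.0 TPM) in CON. It was lower in both stresses, by log2 ratios of -1.36 (-1.62 to -1.10) for FS vs CON and -1.02 (-1.26 to -0.78) for CS vs CON. Unigene18140_All was lower in FS only, with 115 tags in FS, 300 in CS and 279 in CON, and log2 ratios of -1.32 (-1.65 to -1.0) against CON and -1.37 (-1.69 to -1.06) against CS. Its CS and CON libraries did not differ beyond counting error (0.05, -0.19 to 0.29).

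The remaining E2 genes, like other members below that fall outside the naming rule given with the processing, were picked with their values in view. Unigene17134_All was higher in both stresses, with 418 tags in FS, 345 in CS and 143 in CON. Unigene34890_All was higher in FS alone, with 71 tags in FS, 31 in CS and 29 in CON. Unigene43959_All, named for E2t, was near the detection limit in both stresses, with 4 tags in FS and 5 in CS against 30 in CON. The hits of Unigene19947_All (E = 2.13e-06) and Unigene17134_All (E = 2.68e-09) were weak, so that the name E2 is less certain for them than for Unigene34890_All (E = 2.90e-65).

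RING ligases bind an E2 through a zinc-holding RING domain. The RING class goes by hit words. Unigene14080_All, named for the RING ligase SINAT5, therefore stood with the other ligases, and it was down regulated in both stresses against CON. In CS vs CON 7 genes of the RING class were up regulated and 0 down regulated, in FS vs CON 5 and 1, and in FS vs CS 2 and 5. Of all genes listed for these comparisons, 53.0%, 56.2% and 55.3% were up regulated, and the difference of the class from them was not tested. The RING1 ligase gene Unigene43283_All had 92 tags (7.73 TPM) in FS, 289 (24.1 TPM) in CS and 89 (7.69 TPM) in CON. CS stood apart from both other libraries, with 1.64 (1.30 to 2.00) for CS vs CON and -1.64 (-1.99 to -1.30) for FS vs CS, while FS and CON did not differ beyond counting error (0.01, -0.43 to 0.44). The CS library enters both ratios, so they are not separate observations. Unigene19800_All, named for a membrane associated RING protein, had the same order with 67 tags in FS, 168 in CS and 71 in CON. Unigene19615_All, which shares its best-hit sequence, had 90 tags in FS against 192 in CS.

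Other RING genes were higher in both stresses. Unigene33231_All had 271 tags (22.8 TPM) in FS, 333 (27.7 TPM) in CS and 122 (10.5 TPM) in CON, with log2 ratios of 1.11 (0.80 to 1.43) for FS vs CON and 1.39 (1.09 to 1.71) for CS vs CON. Unigene22932_All had 40 tags in FS, 43 in CS and 11 in CON. Its log2 ratios of 1.82 (0.83 to 2.93) for FS vs CON and 1.91 (0.93 to 3.02) for CS vs CON are wide because of the low control count. Unigene760_All, Unigene23684_All and Unigene8927_All were listed for CS vs CON alone, with 33 to 36 tags in CS against 5 to 9 in CON.

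The RING gene with the most tags in FS, Unigene24420_All, was high in that library alone, with 444 tags (37.3 TPM) against 129 (10.7 TPM) in CS and 102 (8.82 TPM) in CON. The log2 ratio was 2.08 (1.77 to 2.40) for FS vs CON and 1.80 (1.51 to 2.09) for FS vs CS. CS and CON did not differ beyond counting error (0.28, -0.10 to 0.67). Unigene45420_All had the same order at lower counts, 56 tags in FS, 17 in CS and 19 in CON. The ring zinc finger gene Unigene42912_All had 17 tags in FS and 0 in CON, which is 5.50-fold higher with 0 set to 3 tags. The interval of its log2 ratio starts at 2.00. Unigene10481_All, by contrast, was low in FS with 77 tags, against 235 in CS and 172 in CON, and Unigene12109_All had 32 tags in FS against 94 in CS.

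**Figure D3:**
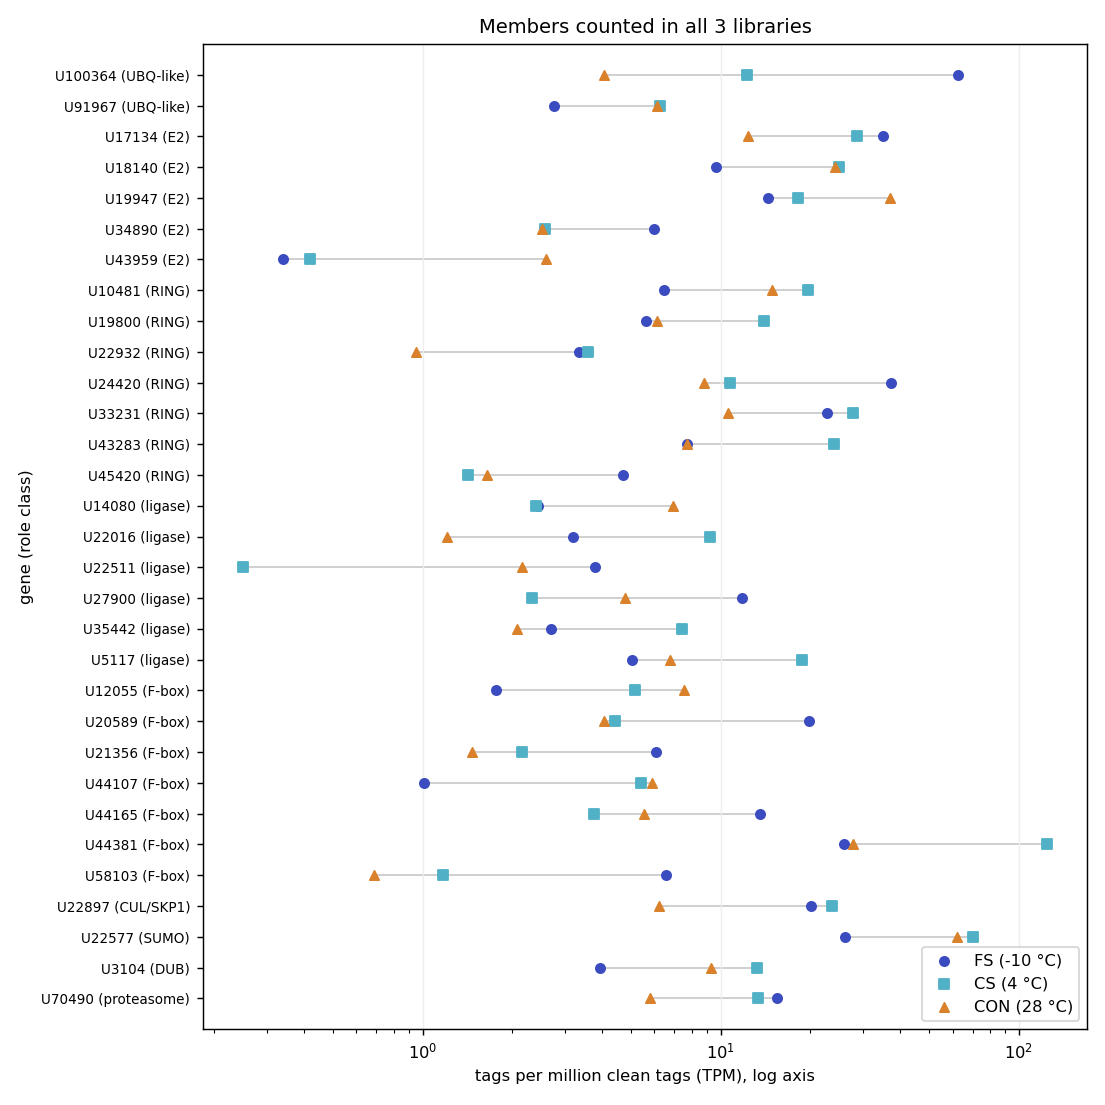
Level (TPM, log axis) of the 31 members with a count in all libraries, in FS (circles), CS (squares) and CON (triangles), ordered by role class. F-box genes such as Unigene58103_All and Unigene20589_All lie apart in FS, Unigene44381_All and the RING gene Unigene43283_All lie apart in CS, and SKP1 (Unigene22897_All) lies apart in CON.

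SCF ligases are built from a cullin, SKP1 and an F-box protein. The SKP1 gene Unigene22897_All had 240 tags (20.2 TPM) in FS, 284 (23.6 TPM) in CS and 72 (6.22 TPM) in CON, log2 ratios of 1.69 (1.31 to 2.10) for FS vs CON and 1.93 (1.55 to 2.32) for CS vs CON. Both stress libraries lay above the control, and FS and CS did not differ beyond counting error (-0.23, -0.48 to 0.02). Its site 1 tag had 143 copies in FS, 230 in CS and 39 in CON, and its site 2 tag 92 in FS against 33 in CON. Between FS and CS the tags did not share 1 order, which the gene's count does not show. The site 1 tag was lower in FS (-0.67, -0.98 to -0.37), whereas the gene's tags outside it numbered 97 in FS and 54 in CS. The cullin-like 1 gene Unigene31828_All, which by its name would be the scaffold of such a complex, had 113 tags in CS against 48 in CON.

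The 15 F-box genes, whose products select the targets of SCF ligases, were listed in both directions in each comparison. In FS vs CON 7 were up regulated and 3 down regulated, in FS vs CS 6 and 3, and in CS vs CON 2 and 1. Thus 10, 9 and 3 of the 15 were listed, where 52.5%, 51.8% and 50.2% of all genes were listed for these comparisons. Of all genes so listed, 56.2%, 55.3% and 53.0% were up regulated. The difference between classes was not tested, nor that from all genes. Unigene44381_All, an F-box/LRR-repeat gene, had the most tags of all members: 308 (25.9 TPM) in FS, 1497 (125 TPM) in CS and 321 (27.8 TPM) in CON. CS alone stood apart, with 2.17 (1.99 to 2.35) for CS vs CON and -2.27 (-2.45 to -2.09) for FS vs CS, while FS vs CON was -0.10 (-0.33 to 0.13). Both of its tags followed the gene, the site 1 tag with 284 copies in FS, 1398 in CS and 296 in CON and the site 2 tag with 16, 83 and 25.

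Other F-box genes were high in FS alone. Unigene58103_All, also F-box/LRR-repeat, had 78 tags (6.55 TPM) in FS, 14 (1.17 TPM) in CS and 8 (0.69 TPM) in CON, a log2 ratio of 3.24 (2.19 to 4.50) for FS vs CON and 2.49 (1.66 to 3.43) for FS vs CS. Unigene20589_All, with leucine rich repeats in its description, had 235 tags in FS, 53 in CS and 47 in CON, with 2.28 (1.82 to 2.76) for FS vs CON and 2.16 (1.73 to 2.62) for FS vs CS. In the counts of both genes FS lay above the other libraries, and CS and CON did not differ beyond counting error. Unigene20589_All also had a listed sense tag at site 3 that matches several genes, with 255 copies in CS and 785 in CON. These copies exceed the gene's counts, and which gene they came from was not tested.

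Unigene21356_All had 72 tags in FS, 26 in CS and 17 in CON, with 2.04 (1.26 to 2.90) for FS vs CON. Unigene44165_All, whose hit joins an F-box with FAR1 and SWIM zinc finger names, had 162 tags in FS, 45 in CS and 64 in CON, with 1.86 (1.38 to 2.37) for FS vs CS. FAR1 proteins act in phytochrome A signalling in Arabidopsis. The F-box and WD40 gene Unigene27886_All had 15 tags in FS and 0 in CON, 4.86-fold higher with 0 set to 3 tags. The interval of its log2 ratio starts at 1.80.

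F-box genes low in FS were fewer. Unigene44107_All had 12 tags (1.01 TPM) in FS, 65 (5.41 TPM) in CS and 68 (5.88 TPM) in CON, with -2.54 (-3.57 to -1.65) for FS vs CON and -2.43 (-3.45 to -1.52) for FS vs CS. Unigene12055_All had 21 tags in FS, 62 in CS and 87 in CON, with -2.09 (-2.85 to -1.39) for FS vs CON. FS was the lowest library for both. Unigene35480_All had 5 tags in FS against 37 in CON, and Unigene32970_All, the F-box gene down regulated in CS vs CON, had 24 tags in CS against 63 in CON (-1.45, -2.19 to -0.75). The remaining 5 F-box genes, Unigene231_All, Unigene21974_All, Unigene11348_All, Unigene48113_All and Unigene91643_All, were each listed for 1 comparison and were higher in the stress library or in FS, with log2 ratios of 1.02 to 2.54 and the last at 14 tags in FS and 0 in CON.

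The class of other ligases held 11 genes, 7 of them described only as ubiquitin-protein ligase. The gene Unigene5117_All had 60 tags (5.04 TPM) in FS, 225 (18.7 TPM) in CS and 78 (6.74 TPM) in CON, with 1.47 (1.10 to 1.86) for CS vs CON and -1.89 (-2.33 to -1.48) for FS vs CS. Unigene22016_All had 38 tags in FS, 111 in CS and 14 in CON, with 2.93 (2.13 to 3.85) for CS vs CON. Both genes were highest in CS, as was Unigene35442_All with 32 tags in FS, 89 in CS and 24 in CON. Unigene27900_All had the opposite order, with 141 tags in FS, 28 in CS and 55 in CON, and log2 ratios of 1.32 (0.86 to 1.79) for FS vs CON and 2.34 (1.75 to 2.98) for FS vs CS. Its CS count lay below CON by -1.03 (-1.74 to -0.35) without being listed.

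Unigene14080_All, named for SINAT5, a RING ligase known in Arabidopsis for degrading the root development factor NAC1, was lower in both stresses. It had 29 tags in FS, 29 in CS and 80 in CON, with -1.51 (-2.17 to -0.88) for FS vs CON and -1.52 (-2.18 to -0.89) for CS vs CON. Unigene92398_All had 11 tags in CS against 55 in CON (-2.38, -3.46 to -1.43). Unigene53254_All had 50 tags in CS against 10 in CON (2.27, 1.27 to 3.41). All of its tags were 1 tag that is 1 base away from the tag of Unigene80922_All, which had 128 copies in CS and 19 in CON, and how far reads of the one were counted for the other was not tested.

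A pair of genes shared the best hit BRE1A, known in humans as a ligase that adds ubiquitin to histone H2B. Both had fewer tags in CS than in FS. Unigene22511_All had 45 tags in FS, 3 in CS and 25 in CON, so that its log2 ratios of -3.11 (-5.48 to -1.40) for CS vs CON and 3.92 (2.28 to 6.25) for FS vs CS rest on 3 tags. Unigene11145_All had 48 tags in FS against 15 in CS, a log2 ratio of 1.69 (0.83 to 2.63), and its gene count in CON is not known here. Whether they are separate genes was not tested. The U-box ligase PUB14 (Unigene11973_All) had 153 tags in FS against 77 in CS, and Unigene31146_All 14 tags in FS against 0 in CON.

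The SUMO ligase gene Unigene22577_All had 312 tags (26.2 TPM) in FS, 845 (70.4 TPM) in CS and 719 (62.2 TPM) in CON. It was low in FS, with -1.25 (-1.44 to -1.05) for FS vs CON and -1.43 (-1.62 to -1.24) for FS vs CS, and CS and CON differed by 0.18 (0.03 to 0.32). Its tags did not share 1 order. The site 3 tag had 88 copies in FS, 495 in CS and 410 in CON, log2 ratios of -2.26 for FS vs CON and -2.48 for FS vs CS. The site 1 tag had 24 copies in FS, 62 in CS and 16 in CON, so it was highest in CS, by 1.90 (1.09 to 2.79) for CS vs CON, a difference that the site 3 tag did not have (0.22, 0.03 to 0.41). Another 200 tags in FS, 288 in CS and 293 in CON were not in the tag lists. The best hit of this gene was weak (E = 1.37e-11).

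The ubiquitin carboxyl-terminal hydrolase gene Unigene3104_All, which by its name removes ubiquitin from proteins, had 47 tags (3.95 TPM) in FS, 159 (13.2 TPM) in CS and 107 (9.25 TPM) in CON. FS was lowest, with -1.23 (-1.76 to -0.72) for FS vs CON and -1.75 (-2.25 to -1.27) for FS vs CS. CS lay above CON by 0.52 (0.15 to 0.88) and was not listed.

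At the end of the pathway, 2 proteasome genes were listed, neither of them as down regulated. Unigene70490_All, named for the regulatory subunit S3 of the 26S particle, had 184 tags (15.5 TPM) in FS, 160 (13.3 TPM) in CS and 67 (5.79 TPM) in CON, with 1.42 (1.00 to 1.84) for FS vs CON and 1.20 (0.78 to 1.64) for CS vs CON. Unigene55095_All, named for subunit alpha type-6 of the 20S core, had 75 tags (6.30 TPM) in FS and 34 (2.83 TPM) in CS, with 1.15 (0.55 to 1.78). The 26S particle has many more subunits, and levels of those outside the lists were not analysed here, so nothing is said of the particle as a whole.

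**Figure D4:**
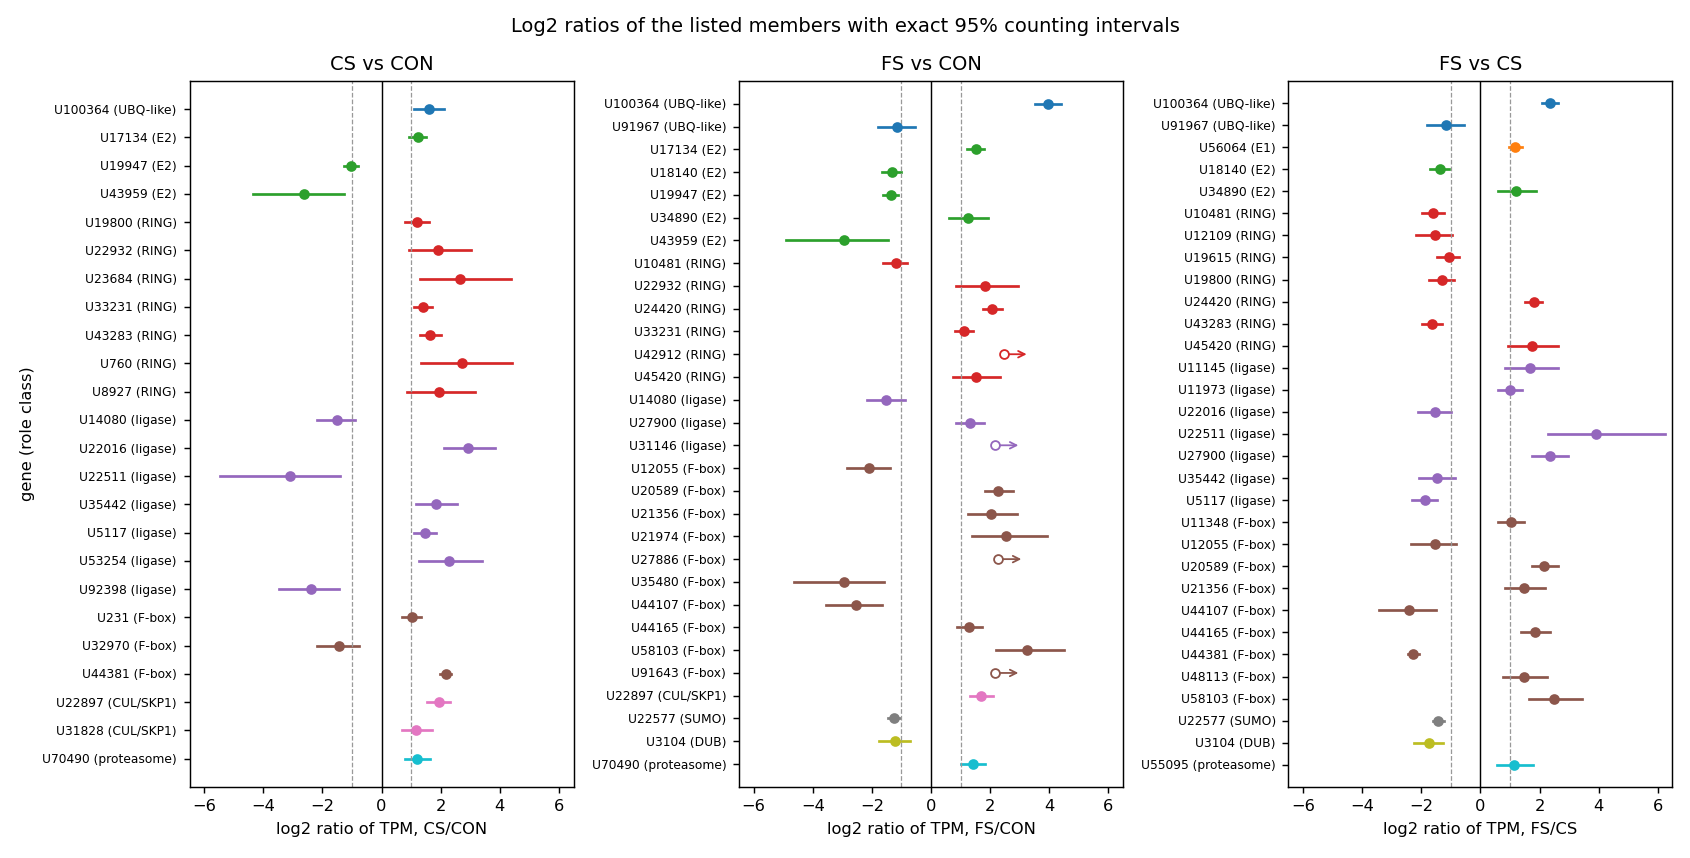
Log2 ratio of TPM for every listed member of CS vs CON, FS vs CON and FS vs CS (one panel each), coloured by role class, with exact 95% counting intervals as bars. Dashed lines mark the authors' limit of 1 in size, and open circles with arrows mark lower bounds for the 4 members at 0 tags in CON. Genes of the RING class (red), set by hit words, all lie right of 0 in CS vs CON. In FS vs CS 5 of 7 lie left of it, a split that was not tested against all genes. Unigene14080_All, named for the RING ligase SINAT5 but classed with the other ligases, lies left of 0 in CS vs CON.

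Besides Unigene100364_All, 30 members were listed for 2 comparisons and can be grouped by the library that both share. In 8 members FS was listed as higher than both CS and CON, and in 7 as lower than both, which is 15.1% and 13.2% of the members, beside 9.67% and 6.95% of all genes. The first group held Unigene24420_All, Unigene27900_All, Unigene34890_All, Unigene45420_All and 4 F-box genes. The second held the SUMO ligase, the carboxyl-terminal hydrolase, Unigene18140_All, Unigene91967_All, Unigene10481_All and 2 F-box genes. CS was listed as higher than both others for 6 members (11.3%, beside 8.45%), and as lower than both for Unigene22511_All alone (1.89%, beside 7.47%). All of those 6 were ligases or F-box genes, but so were most of the 53 members (15 F-box, 13 RING and 11 other ligase genes). CON was lower than both stresses for 5 members (9.43%, beside 8.58%), among them SKP1 and the S3 subunit, and higher than both for 3 (5.66%, beside 6.99%). Each of these groups rests on 1 library that enters both of its comparisons, and no difference from the shares of all genes was tested.

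The tag tables give the strand, which the gene counts follow. Among tags that match 1 gene alone, sums of listed sense tags were never above the gene's count, in 0 of 15554 gene and library pairs. Sums of antisense tags were above it in 2160 of 4132. For 41 members 44 sense tags that match 1 gene alone were listed, with site 1 among them for 36. Where such a tag and its gene were both listed for a comparison, the sense tag moved as the gene did. This held for 20 of 20 in CS vs CON, 24 of 24 in FS vs CON and 27 of 27 in FS vs CS. The site 1 tag of Unigene22577_All, not listed for FS vs CON, is not among them and lay the other way there, with 24 copies in FS and 16 in CON. These tags are part of the gene counts and so are no separate measurement.

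Best-hit names limit what the class of a member means. A hit of E at most 1e-20 was recorded for 41 members and a weaker one for 12. Among the 12 were Unigene100364_All (E = 4.46e-12), the SKP1 gene Unigene22897_All (E = 3.39e-12) and the F-box gene Unigene20589_All (E = 2.50e-15). By species, 35 hits were castor bean (Ricinus communis) and 8 poplar (Populus trichocarpa) proteins. GO terms that name ubiquitin, the proteasome, cullins or small protein conjugation were given to 16 of the 39 members with any term. A further 69 genes outside the selection carried such a term, by a word list written after the files were seen. Of these 69 genes, 22 were up regulated and 13 down regulated in CS vs CON, 21 and 13 in FS vs CON, and 15 and 16 in FS vs CS. The shares of all 7713 genes were 26.6% and 23.6% in CS vs CON, 29.5% and 23.0% in FS vs CON, and 28.7% and 23.2% in FS vs CS. The 69 genes were not tested against these shares.

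Of related genes outside the selection (COP9 signalosome, NEDD8, CDC48, anaphase-promoting, HECT, BTB, autophagy and similar names), 2 were listed. The COP9 signalosome, which removes the cullin modifier NEDD8, was represented by a subunit gene, Unigene39980_All, with 116 tags in FS against 297 in CON, a log2 ratio of -1.40. Unigene47215_All, named for NEDD8 ultimate buster, which in humans leads NEDD8 conjugates to the proteasome, had 24 tags in CS against 3 in CON. That ratio of 2.95 rests on 3 tags.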

How the data were processed

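Tag counts came from 3 leaf libraries of seabuckthorn, 1 each for FS, CS and CON, grouped by their labels. The authors trimmed reads to clean tags of 21 bases, dropped tags seen in fewer than 2 copies and mapped the rest with up to 1 mismatch. Bowtie 0.12.3 is named in the submitters' processing notes. The study names gene sequences of other plants (grape, poplar and Arabidopsis) as reference, whereas the tables carry Unigene identifiers, and a version is not given in the sources used here. Counts were deposited per gene (unambiguous clean tags) and per distinct tag (copies). The authors scaled the counts to TPM by the clean tags of each library and wrote 0 as 0.01. The deposited tables also hold the authors' log2 ratios, P-values and FDR from the test of Audic and Claverie, which were not used, and list only genes past an FDR limit and a log2 ratio of 1 in size.

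From the counts, log2 ratios of TPM with exact 95% intervals were computed (scipy 1.17.1 and numpy 2.4.6 under Python 3.11.15, with tables in pandas 2.3.3 and plots in matplotlib 3.10.9). A count of 0 was set to 3 tags. The precision is set by the tags of a gene, since the libraries held 11566402 to 12010078 clean tags. Members were named where they were, in a comparison, among the 5 largest rises or falls whose lower library held at least 10 tags, among the 2 with most tags at 0 in the other library, the member with most tags in its class, or listed in all 3. Other members were picked with their values in view. The members and lists were chosen with earlier results of these data known. Alternatives were scaling by sense tags, by edgeR 4.0.16 TMM factors or by DESeq2 1.42.0 size factors (R 4.3.3), count and fold limits, hit quality, each best hit once, and the value used for 0. No genome was used. Best hits give all gene names.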

Additional observations from a re-analysis of the deposited data

Results flagged for a closer look

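Among tags that match 1 gene alone, the tag tables hold 9 antisense tags in 8 members, which lie outside the gene counts, and 7 of their counts were over 3 tags and at least 2 times the CON level per clean tag. In the RING gene Unigene42912_All, whose sense count was 17 in FS and 0 in CON, an antisense tag at site 1 had 375 copies in FS, 235 in CS and 104 in CON. The ligase gene Unigene22016_All had antisense tags at site 10, with 99 copies in FS, 307 in CS and 88 in CON, and at site 9, with 29 copies in CS against 4 in CON. In the F-box/LRR-repeat gene Unigene44381_All an antisense tag at site 6 had 11 copies in FS, 42 in CS and 6 in CON, and its sense count was also highest in CS. Unigene35442_All had an antisense tag at site 1 with 0 copies in FS, 15 in CS and 0 in CON. In Unigene19800_All an antisense tag at site 1 had 105 copies in FS against 41 in CON, while the sense tag had 67 in FS and 71 in CON. These are single libraries, and no difference was tested.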

How the results depend on the processing

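Medians kept their sign, and member counts stayed within 1.5 times, under scaling by sense tags, TMM factors, a limit of 30 tags in the higher library, removal of members at 0, each best hit once, no ribosomal names and 0.01 TPM for 0. TMM factors moved the median of all listed genes by -0.12 in CS vs CON, -0.11 in FS vs CON and -0.13 in FS vs CS, sense tags by at most 0.06. With TMM factors 14 members were up regulated and 15 down regulated in FS vs CS, so the larger side turned. DESeq2 size factors moved it by -1.04, -1.10 and -1.08, because no gene near no change is listed for their median to rest on. They left 5 members up and 6 down in CS vs CON, 8 and 11 in FS vs CON, and 5 and 15 in FS vs CS, with a median of 0.39 in CS vs CON and a reversed one of -0.08 in FS vs CS, and moved 51 of 52 ratios of named members, none of which reversed. Where the lower library had to hold at least 10 tags, the median of FS vs CS reversed to -0.04, and the cause was not tested. A log2 limit of 2 left 5 members up and 3 down in CS vs CON (median 2.22), 10 and 4 in FS vs CON (2.18), and 5 and 2 in FS vs CS (2.34). With best hits of E at most 1e-20, 7 members were down regulated in FS vs CON. The perfectly matching tag alone, an alternative chosen after seeing the data, gave 0.70, 2.15 and 1.46 for Unigene100364_All in CS vs CON, FS vs CON and FS vs CS. Every listed tag assigned to a gene was a perfect match, so a limit to perfect matches changed nothing in the agreement of tags. No paired analysis was possible because there was 1 library per condition, and no replicate could be left out. Counts under about 10 tags, such as 3 for Unigene22511_All, give intervals spanning several log2 units.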

Other observations

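Antisense tags outnumbered the sense count in the BRE1A gene Unigene22511_All, with 304 copies in FS, 60 in CS and 253 in CON, against a gene count of 45, 3 and 25 in the same libraries. Both strands were lowest in CS, with a log2 ratio of -2.13 (-2.56 to -1.72) for the antisense tag in CS vs CON. The other BRE1A gene, Unigene11145_All, had an antisense tag with 21 copies in CS against 58 in CON (-1.52, -2.31 to -0.78). The E2t gene Unigene43959_All had an antisense tag with 28 copies in FS, 15 in CS and 72 in CON, where its gene count was 4, 5 and 30. Where tag and gene were both listed for a comparison, antisense tags that match 1 gene alone moved as the gene did in 6 of 6 cases in CS vs CON, 2 of 2 in FS vs CON and 4 of 4 in FS vs CS. Some tags recur in these cases and the comparisons share libraries, so the cases are not separate observations. The same share over all genes is not given. Unigene19800_All, whose gene was not listed for FS vs CON, is left out, with 1.31 for its antisense tag and -0.13 for the gene there.

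Tags 1 base away from a member's tag were also listed for Unigene10481_All (T19C, 13 copies in FS and 55 in CS) and Unigene44165_All (C16T, 15 copies in FS and 0 in CON), both as matching no gene.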
